A study of Homo sapiens with 6 samples.

Results

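HOX genes encode homeodomain transcription factors that give cells their place along the body axis. They lie in 4 clusters, HOXA on chromosome 7, HOXB on chromosome 17, HOXC on chromosome 12 and HOXD on chromosome 2. Genes are numbered in paralog groups, from 1 at the 3′ end of a cluster to 13 at its 5′ end. Genes at the 3′ end act in the hindbrain and anterior trunk, and genes at the 5′ end in the posterior trunk, the limbs and the urogenital tract. HOX proteins bind DNA together with cofactors of the TALE homeodomain class, the PBX and MEIS families. Activity of 5′ HOXD genes is a known trait of Ewing sarcoma.

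The genes described here are those whose symbol is HOXA, HOXB, HOXC or HOXD followed by a number, taken from array probe sets that carry 1 gene symbol. This gave 27 of 18417 genes measured, each with 1 probe set: 1 HOXA gene (HOXA2), all 10 HOXB genes, 7 HOXC genes and all 9 HOXD genes. RefSeq lists 39 such genes, and the other 12 (10 HOXA genes, HOXC4 and HOXC6) were not analysed here.

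The study hybridised RNA of A673 and SK-N-MC, established human lines grown from Ewing tumors, to 6 arrays of the Affymetrix Human Gene ST type. In each line, 2 arrays held cells given an siRNA against STEAP1 (numbered 2 and 3) and 1 array held cells given a control, non-silencing siRNA. The order below is A673 with siRNA 2, A673 with siRNA 3, A673 control, SK-N-MC with siRNA 2, SK-N-MC with siRNA 3 and SK-N-MC control. All cells were exposed to 5 nM siRNA for 48 h, so no array shows untransfected cells. The labels name no separate cultures and no extraction or scan batches, so each p-value reflects array-to-array spread alone, which may be technical, and a batch that follows the line cannot be told apart from the line.

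Values are log2 of the deposited intensity. Probe sets bind with different strength, so levels are compared between arrays for 1 gene and not between genes. Over all genes the median lay at 3.21 to 3.24 in each array, and no detection calls were used. The target of the siRNAs, STEAP1, lay at 4.53 and 4.59 in the A673 siRNA arrays against 6.23 in the A673 control, and SK-N-MC had 4.17 and 4.73 with the siRNAs against 7.15 in its control. Of the Ewing markers, CD99 averaged 10.18 in A673 and 9.43 in SK-N-MC, and NKX2-2 averaged 5.68 in A673 and 5.88 in SK-N-MC. CCND1, with the largest line difference of these markers, averaged 9.33 in A673 and 7.55 in SK-N-MC. GLI1 (1.83 in A673 and 1.62 in SK-N-MC) and KCNAB3 (3.10 in A673 and 2.69 in SK-N-MC) lay under the median of all genes. The summed intensity of 9 such markers, the silenced STEAP1 among them, was 2286 to 2418 in A673 and 1297 to 1577 in SK-N-MC. CD99 and CCND1 make up most of that sum, so it says little of the other markers. Of the 9, 3 were called higher in A673 and 1 lower, beside 13.5% and 11.4% of all genes. The lower one was PPP1R1A, which averaged 6.30 in A673 and 6.71 in SK-N-MC (difference -0.41, adjusted p = 0.0349 in limma). The endothelial markers PECAM1, CDH5 and VWF and the leukocyte markers PTPRC and CD3E averaged at most 1.54 in either line. CD68, the other leukocyte marker measured, averaged 3.96 in A673 and 3.62 in SK-N-MC and was not called between the lines. Their part in the HOX values was not tested.

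Of the 27 HOX genes, 7 had a mean log2 of at least 4 over the 6 arrays: HOXD4, HOXD8, HOXD9, HOXD10, HOXD11 and HOXD13, and HOXB7. The other 20 had means from 1.42 for HOXA2 to 3.89 for HOXC13. The plot of HOXD genes by array shows each gene in both lines. For 5 of these 6 HOXD genes RefSeq (GRCh38.p14) gives a promoter here, and the 250 bases before each start are shown. These are the HOX genes with a mean of at least 4 and a promoter entry, which HOXD9 and HOXB7 lack. Of the 5, HOXD10 and HOXD11 were not called between the lines. Capitals mark GGAA or its reverse complement TTCC, the core of the motif bound by ETS factors such as FLI1.
HOXD13, chr2:176092471-176092720, plus strand: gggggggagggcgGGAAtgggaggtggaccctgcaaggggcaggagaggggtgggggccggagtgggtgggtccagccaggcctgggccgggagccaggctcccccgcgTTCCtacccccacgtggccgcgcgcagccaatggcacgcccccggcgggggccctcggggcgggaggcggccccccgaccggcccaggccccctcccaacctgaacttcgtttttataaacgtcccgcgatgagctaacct
HOXD11, chr2:176107030-176107279, plus strand: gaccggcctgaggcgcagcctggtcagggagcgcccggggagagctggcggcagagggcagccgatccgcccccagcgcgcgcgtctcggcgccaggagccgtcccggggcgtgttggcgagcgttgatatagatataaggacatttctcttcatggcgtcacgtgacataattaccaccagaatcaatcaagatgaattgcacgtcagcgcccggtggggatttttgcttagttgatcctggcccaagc
HOXD10, chr2:176116528-176116777, plus strand: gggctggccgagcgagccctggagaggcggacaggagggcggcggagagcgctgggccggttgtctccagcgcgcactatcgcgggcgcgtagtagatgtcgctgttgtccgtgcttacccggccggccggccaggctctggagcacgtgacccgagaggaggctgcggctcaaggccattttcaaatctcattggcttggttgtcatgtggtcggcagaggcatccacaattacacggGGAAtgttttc
HOXD8, chr2:176129455-176129704, plus strand: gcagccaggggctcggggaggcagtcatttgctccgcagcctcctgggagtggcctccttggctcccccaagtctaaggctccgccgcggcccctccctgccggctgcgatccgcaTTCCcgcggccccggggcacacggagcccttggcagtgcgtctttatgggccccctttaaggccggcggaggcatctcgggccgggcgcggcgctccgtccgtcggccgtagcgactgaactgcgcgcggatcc
HOXD4, chr2:176151300-176151549, plus strand: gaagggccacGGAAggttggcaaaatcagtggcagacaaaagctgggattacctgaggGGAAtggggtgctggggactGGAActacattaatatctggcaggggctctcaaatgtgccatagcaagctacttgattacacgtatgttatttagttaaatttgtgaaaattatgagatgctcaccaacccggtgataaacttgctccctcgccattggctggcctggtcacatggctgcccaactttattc
The core occurs 3 times before HOXD4, 2 times before HOXD13, 1 time before HOXD10 and before HOXD8, and 0 times before HOXD11. On both strands of windows of this length, 92.7% of 35116 RefSeq promoters hold it, with a median of 3 occurrences. The tandem repeat GGAAGGAA was in none of the 5, and 3.1% of all promoters hold it. HOXD13 has TATAAA and, overlapping it, its reverse complement TTTATA, a motif held by 10.7% of promoters, and HOXD11 has TGATNNAT (the PBX-HOX type of site), held by 6.5%. CpG dinucleotides numbered 21 to 28 before HOXD13, HOXD11, HOXD10 and HOXD8 and 4 before HOXD4, beside a median of 11 over all promoters. These are matches of letters and say nothing of binding.

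**Figure D1:**
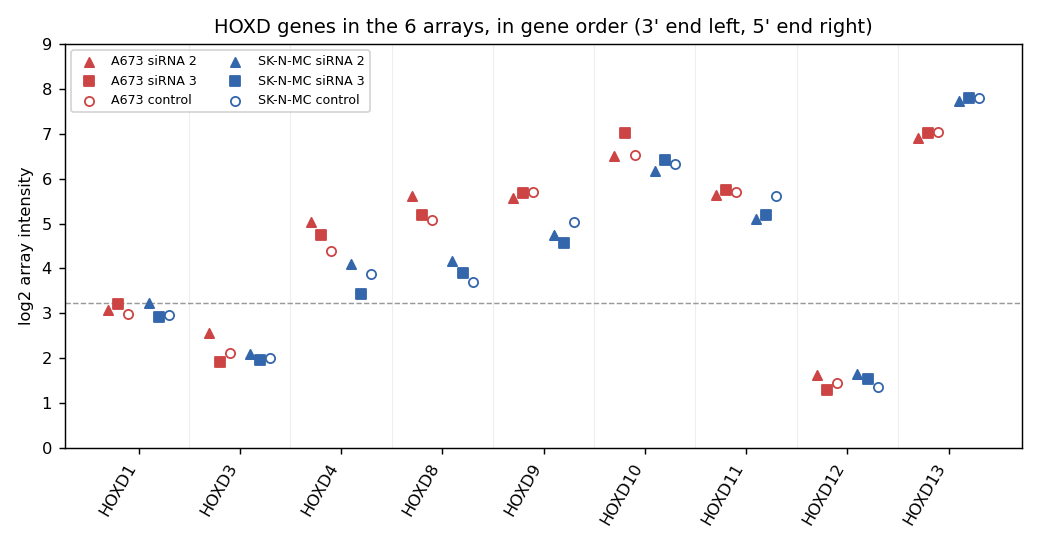
Log2 array intensity of the 9 HOXD genes (vertical axis) in gene order (horizontal axis), 1 symbol per array, A673 in red and SK-N-MC in blue, with control arrays as open circles. The dashed line is the median of all genes (3.23). HOXD4, HOXD8, HOXD9, HOXD10 and HOXD11 are higher in every A673 array than in any SK-N-MC array, and HOXD13 is lower. HOXD10 and HOXD11 were not called.

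The first comparison asks how the HOX genes differ between the lines, with silencing as a term in the fit. Of the 27 genes, 10 passed the threshold (limma, adjusted p under 0.05 over 18417 genes). HOXB2, HOXB3, HOXD4, HOXD8 and HOXD9 were higher in A673, and HOXB13, HOXC11, HOXC12, HOXC13 and HOXD13 were lower. An unadjusted p under 0.05 in limma was found for these 10 and for HOXB4, HOXC8, HOXC10, HOXD10 and HOXD11, beside 34.1% of all genes. Over all genes 24.8% were called, 13.5% higher and 11.4% lower in A673, beside 37.0% of the HOX genes, and that share was not tested against the rest. The median size of the line difference was 0.30 in the HOX genes and 0.18 in all genes.

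HOXD13, the 5′ gene of its cluster and needed for the digits, lay at 6.90, 7.01 and 7.03 in A673 and at 7.74, 7.79 and 7.80 in SK-N-MC. Every A673 array was below every SK-N-MC array, and within a line the arrays differed by little. The difference was -0.80 (SE 0.10, 95% interval -1.03 to -0.56, adjusted p = 0.000726), a 1.74-fold lower level in A673.

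HOXD genes further to the 3′ side differed in the other direction. HOXD8 lay at 5.61, 5.19 and 5.07 in A673 and at 4.16, 3.89 and 3.69 in SK-N-MC, with no overlap (difference 1.37, SE 0.14, adjusted p = 0.000231, 2.59-fold higher in A673). HOXD9, a gene of the first of the posterior paralog groups, lay at 5.57, 5.67 and 5.70 in A673 and at 4.74, 4.58 and 5.04 in SK-N-MC. The A673 arrays were again all higher (difference 0.86, SE 0.12, adjusted p = 0.000982). HOXD4 lay at 5.04, 4.75 and 4.39 in A673 and at 4.11, 3.43 and 3.88 in SK-N-MC, higher in A673 with a wider spread (difference 0.92, SE 0.21, adjusted p = 0.0119). Without the A673 siRNA 2 array HOXD4 was not called (difference 0.78, adjusted p = 0.0542). The RefSeq model of HOXD4 overlaps that of HOXD3, so a part of their signal may be shared. HOXD3 itself was dim and did not separate the lines (2.20 in A673 and 2.02 in SK-N-MC on average).

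HOXD10 and HOXD11 lie between HOXD9 and HOXD13 and had small differences of the same sign as HOXD9. HOXD10, which takes part in patterning of the limb and lumbar cord in mice, lay at 6.50, 7.02 and 6.53 in A673 and at 6.17, 6.42 and 6.34 in SK-N-MC. HOXD11, which with its paralogs shapes the forearm and the kidney in mice, lay at 5.64, 5.74 and 5.71 in A673 and at 5.09, 5.19 and 5.61 in SK-N-MC. Both were higher in every A673 array, and neither passed the threshold: HOXD10 differed by 0.38 (95% interval 0.01 to 0.74, adjusted p = 0.135) and HOXD11 by 0.40 (0.11 to 0.69, adjusted p = 0.0529). The value of HOXD11 in the SK-N-MC control was nearer to A673 than those in the SK-N-MC siRNA arrays. In the 4 siRNA arrays alone HOXD11 differed by 0.55 (adjusted p = 0.0333). HOXD12 was dim (1.45 in A673 and 1.51 in SK-N-MC on average), and HOXD1 lay near the median of all genes (3.09 in A673 and 3.04 in SK-N-MC).

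In the HOXB cluster 3 of 10 genes were called, HOXB2 and HOXB3 higher in A673 and HOXB13 lower. HOXB2, a hindbrain gene, lay at 3.92, 4.02 and 4.04 in A673 and at 2.39, 2.43 and 2.28 in SK-N-MC. It had the largest line difference of the 27 genes (1.63, SE 0.11, 95% interval 1.39 to 1.88, adjusted p = 2.1e-05, 3.10-fold higher in A673). HOXB3 lay at 3.80, 3.46 and 3.72 in A673 and at 2.99, 2.96 and 2.99 in SK-N-MC (difference 0.68, SE 0.12, adjusted p = 0.00402). HOXB4, known for its effect on blood stem cells, was also higher in every A673 array, at 3.63, 3.84 and 3.64 against 3.45, 3.45 and 3.31 in SK-N-MC. Its difference of 0.30 did not pass (adjusted p = 0.0858), and its RefSeq model overlaps that of HOXB3.

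The next HOXB genes, HOXB5 to HOXB9, did not pass, with differences from -0.27 for HOXB8 to 0.05 for HOXB9. HOXB7, the only HOXB gene with a mean of at least 4, averaged 4.54 ± 0.29 in A673 and 4.57 ± 0.09 in SK-N-MC (SD, n = 3 each), and its interval ran from -0.36 to 0.31. HOXB8 was dim and lower in every A673 array, but was not called (difference -0.27, adjusted p = 0.160). HOXB1 averaged 2.72 in A673 and 2.61 in SK-N-MC, and HOXA2, the single HOXA gene, averaged 1.36 in A673 and 1.47 in SK-N-MC. HOXB13, which stands apart at the 5′ end and is best known from prostate, lay at 3.26, 3.38 and 3.38 in A673 and at 3.75, 3.79 and 4.0 in SK-N-MC. It was lower in A673 (difference -0.51, SE 0.11, adjusted p = 0.00869), and the call was lost without either control array, which gave the same value (difference -0.45, adjusted p = 0.0650).

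The HOXC cluster differed at its 5′ end. HOXC11 lay at 2.80, 3.00 and 2.67 in A673 and at 3.80, 3.52 and 3.63 in SK-N-MC (difference -0.82, SE 0.13, adjusted p = 0.00178). HOXC12 lay at 3.18, 3.51 and 3.39 in A673 and at 4.03, 4.17 and 4.13 in SK-N-MC (difference -0.75, SE 0.12, adjusted p = 0.00255). HOXC13, needed for hair formation, lay at 3.58, 3.52 and 3.63 in A673 and at 4.30, 4.18 and 4.15 in SK-N-MC (difference -0.64, SE 0.11, adjusted p = 0.00293). All 3 were lower in every A673 array than in any SK-N-MC array. The more 3′ HOXC genes were not called: HOXC8 differed by 0.32, HOXC10 by 0.29, HOXC9 by 0.13 and HOXC5 by -0.27. Of these, HOXC10 was higher in every A673 array (3.76, 3.80 and 3.79 against 3.56, 3.43 and 3.50 in SK-N-MC, adjusted p = 0.0787).

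**Figure D2:**
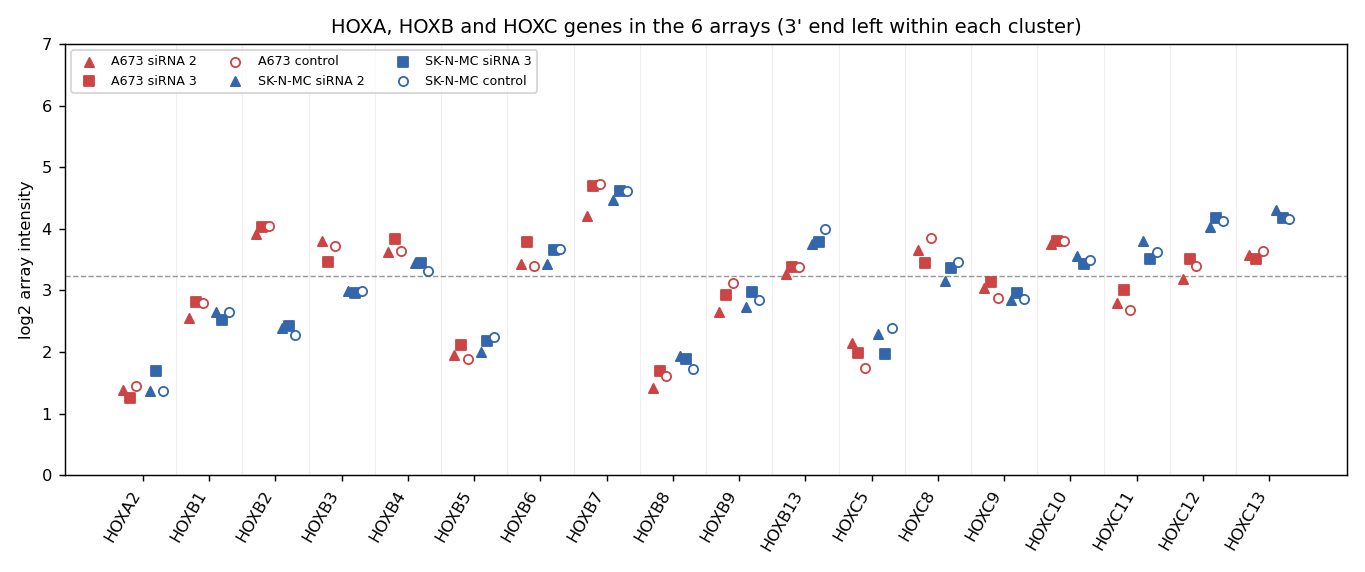
Log2 array intensity of the HOXA, HOXB and HOXC genes (vertical axis), from the 3′ to the 5′ end of each cluster (horizontal axis), 1 symbol per array, A673 in red and SK-N-MC in blue, control arrays open. The dashed line is the median of all genes (3.23). Of the called genes, HOXB2 and HOXB3 lie higher in A673, and HOXB13, HOXC11, HOXC12 and HOXC13 lie lower.

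The calls were then counted by position. In paralog groups 1 to 4, 3 of 8 genes were higher in A673 and 0 lower, in groups 5 to 8, 1 of 7 was higher and 0 lower, and in groups 9 to 13, 1 of 12 was higher and 5 lower. The 5 lower genes all belong to groups 11 to 13, which hold 7 of the genes measured, and the 5 higher genes all belong to groups 1 to 10, which hold 20. The division at group 11 was chosen after the values were seen, and no test was made of it. Counted by arrays without overlap, called or not, the division was less clean. Groups 1 to 10 had 8 genes higher in A673 and 1 lower (HOXB8), and groups 11 to 13 had 1 higher (HOXD11) and 5 lower. Over all genes 19.4% were higher and 18.5% lower by this count. The joint probe set of HOXC6 and HOXC4, outside all counts, was also lower in every A673 array. A second quantile normalization and median centring called the same 10 genes in the same directions. In the siRNA arrays alone HOXD11, of group 11, was called higher in A673 (0.55, adjusted p = 0.0333) and HOXB13 was not called, and HOXD11 was also called among genes with a mean of at least 4 (adjusted p = 0.0348). Under these settings the higher genes thus reached into group 11.

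By cluster, HOXD had 3 genes higher and 1 lower in A673, HOXB 2 higher and 1 lower, and HOXC 0 higher and 3 lower. Groups of arrays did not overlap between the lines for 15 of the 27 genes, 9 with A673 higher and 6 with A673 lower. Over all genes this was so for 37.9%, with A673 higher in 19.4% and lower in 18.5%. Among genes with a mean of at least 4, 4 of the 7 HOX genes and 38.9% of all genes were called, and among dimmer genes 6 of 20 HOX genes and 15.4% of all genes.

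Dim genes made up 6 of the 10 calls: HOXB2, HOXB3, HOXB13, HOXC11, HOXC12 and HOXC13 had means under 4. With values under 4 set to 4, HOXD13 alone kept its call (adjusted p = 0.0189), and HOXD9 (difference 0.86, adjusted p = 0.0551), HOXD8 (difference 1.24, adjusted p = 0.0642) and HOXD4 (difference 0.69, adjusted p = 0.16) missed the threshold. Fewer genes were called in all under that rule, 5.33% beside 24.8% without it. The rule changed no value of HOXD9 or HOXD13, whose lowest values were 4.58 and 6.90. Their adjusted p in limma rose through the other genes of the fit. The lost HOXD9 call therefore does not show a dependence on dim values. In whole-culture RNA, fewer cells that express a gene and less RNA per cell cannot be told apart.

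**Figure D3:**
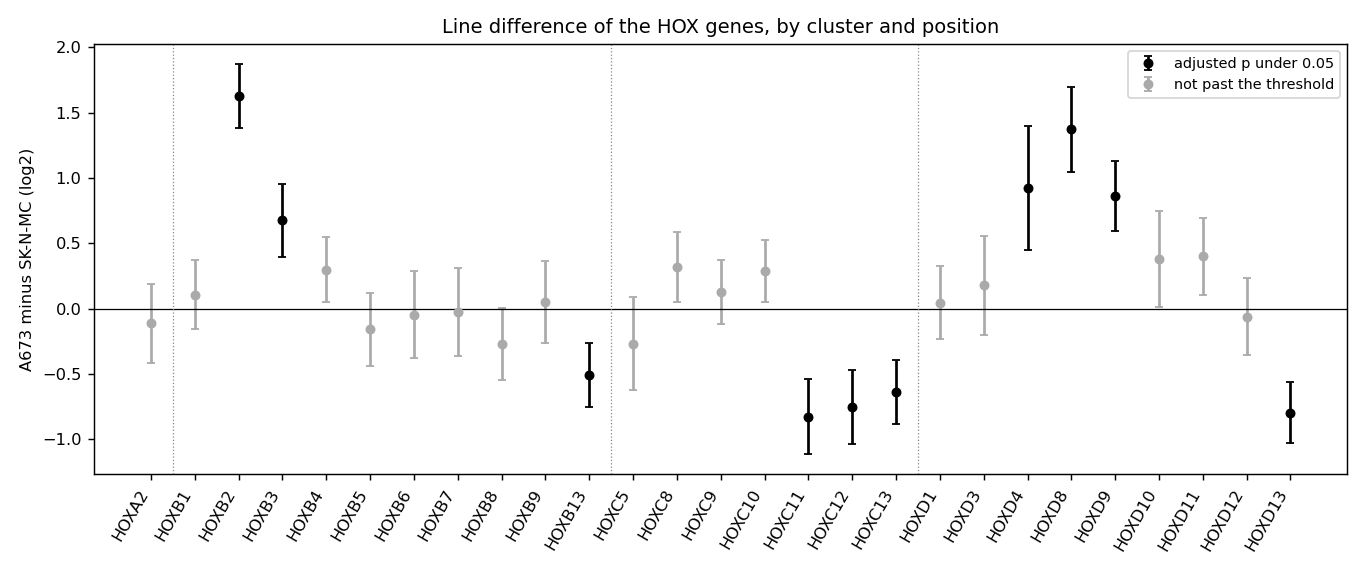
Line difference of the 27 HOX genes, A673 minus SK-N-MC on the log2 scale (vertical axis), by cluster and from the 3′ to the 5′ end (horizontal axis), with 95% intervals from limma, and dotted lines between clusters. Black points passed the threshold: 5 lie above 0 and 5 below, those below being HOXB13, HOXC11 to HOXC13 and HOXD13.

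The cofactors of HOX proteins were examined next. Of 9 TALE genes listed 7 were measured, and 3 were called between the lines, all lower in A673, beside 24.8% called and 11.4% lower over all genes. The median difference was -0.27 beside -0.02 over all genes. MEIS1 lay at 6.35, 6.45 and 6.54 in A673 and at 7.74, 7.92 and 8.07 in SK-N-MC (difference -1.46, SE 0.11, adjusted p = 4.25e-05). PBX3 lay at 2.15, 2.43 and 2.18 in A673 and at 3.49, 3.60 and 3.60 in SK-N-MC (difference -1.31, SE 0.12, adjusted p = 0.000118). PKNOX1 averaged 5.03 in A673 and 5.63 in SK-N-MC (difference -0.60, adjusted p = 0.00547). No array of one line overlapped the other for these 3, and MEIS2, MEIS3, PBX4 and PKNOX2 were not called.

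Among 16 measured genes that act on HOX transcription, 2 were higher and 3 lower in A673, a share of 31.2% beside 24.8% of all genes. KMT2A, a histone methyltransferase that keeps HOX genes active, lay at 6.01, 6.30 and 6.23 in A673 and at 4.81, 5.21 and 4.87 in SK-N-MC (difference 1.22, SE 0.15, adjusted p = 0.000494). CTCF, which forms boundaries within HOX clusters and is named here after its value was seen, was higher by 0.48 (adjusted p = 0.0106). CYP26B1, which breaks down retinoic acid, an inducer of 3′ HOX genes, lay at 2.21, 2.73 and 2.41 in A673 and at 3.71, 4.60 and 4.75 in SK-N-MC (difference -1.90, SE 0.25, adjusted p = 0.000914). KMT2B (-0.59, adjusted p = 0.0128) and the retinoic acid receptor gene RARG (-0.57, adjusted p = 0.0243) were also lower.

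Genes beside the clusters were called in 4 of 15 cases, 1 higher and 3 lower in A673, a share of 26.7% that lies near the 24.8% of all genes. EVX2, the homeobox gene next to HOXD13, lay at 3.27, 3.24 and 3.37 in A673 and at 4.03, 3.89 and 3.92 in SK-N-MC (difference -0.65, SE 0.11, adjusted p = 0.00246). PRAC1, next to HOXB13, lay at 3.86, 4.34 and 4.38 in A673 and at 4.83, 5.32 and 4.92 in SK-N-MC (difference -0.83, SE 0.18, adjusted p = 0.0116). CALCOCO1 was lower (-0.68) and CALCOCO2 higher (1.13). LNPK and MTX2, which flank HOXD on either side and are also named after their values were seen, differed by 0.08 each and were not called. Of 18 noncoding RNAs of the clusters 2 were measured, HOXA-AS2 (-0.09) and HOXB-AS3 (-0.05), and neither was called.

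Markers of other cell types were set beside the line differences. Of 4 fibroblast markers, DCN (1.59 in A673 and 3.62 in SK-N-MC on average) and COL1A1 (4.49 in A673 and 4.85 in SK-N-MC) were lower in A673. COL3A1 went the other way: it was higher in every A673 array (difference 0.26) but was not called. LUM differed by 0.01 and was not called. The summed intensity of the 4 was 37.6 to 42.5 in A673 and 48.5 to 61.2 in SK-N-MC. EPCAM was called at 1.42 in A673 and 1.95 in SK-N-MC, as 1 of 3 epithelial markers (sums 9.52 to 11.3 in A673 and 10.6 to 13.9 in SK-N-MC). The part of these markers in the HOX differences was not tested.

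**Figure D4:**
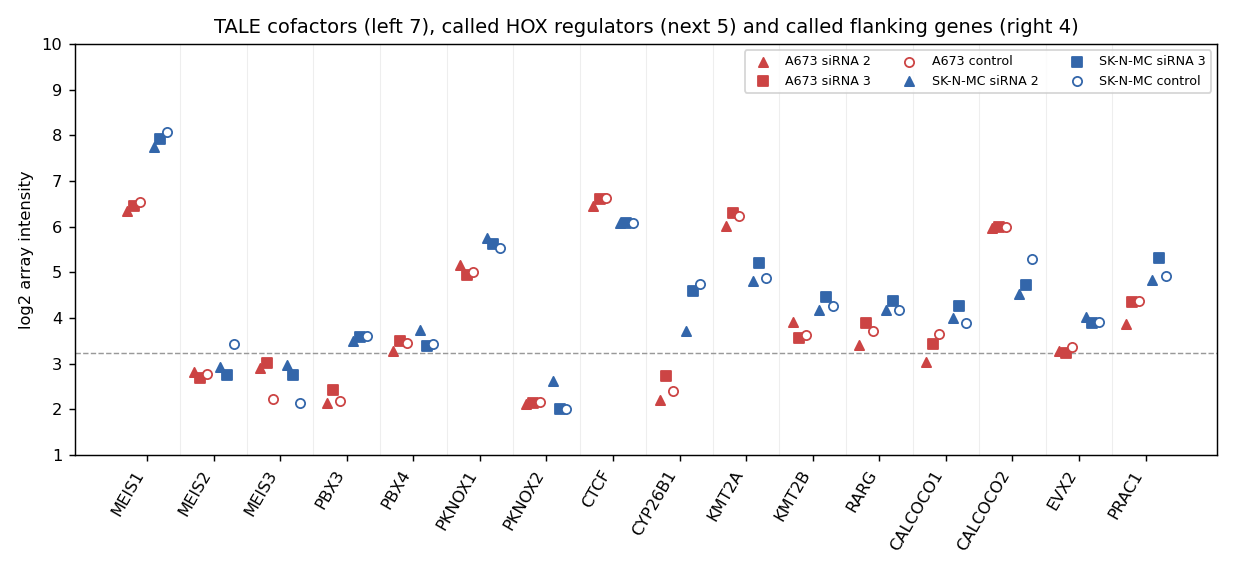
Log2 array intensity (vertical axis) of the 7 TALE cofactor genes, the 5 called HOX regulators and the 4 called flanking genes (horizontal axis), 1 symbol per array, A673 in red and SK-N-MC in blue, control arrays open. The dashed line is the median of all genes (3.23). MEIS1, PBX3 and CYP26B1 lie lower in every A673 array, and KMT2A lies higher.

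The next comparison asks whether HOX genes followed the silencing of STEAP1. With both lines in 1 fit, limma called 0 of the 27 genes, as it called 0% of all genes, and 0 HOX genes had an unadjusted p under 0.05, beside 4.63% of all genes. The differences ran from -0.25 for HOXC8 to 0.33 for HOXD8, with a median of 0.01 beside -0.005 over all genes. Every 95% interval held 0, and their outer limits were -0.56 (HOXD11) and 0.70 (HOXD4). STEAP1 itself missed the threshold in this fit, with a difference of -2.18 (SE 0.24, adjusted p = 0.293), so a count of 0 does not show that HOX genes kept their level.

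HOXD8 was the only HOX gene higher in 4 of 4 siRNA arrays. In A673 it lay at 5.61 and 5.19 with siRNA 2 and 3, against 5.07 in the control, and in SK-N-MC at 4.16 and 3.89, against 3.69 in the control (difference 0.33, SE 0.15, adjusted p = 0.989). Lower in 4 of 4 were HOXB13, HOXC8, HOXD9 and HOXD13. Of these HOXC8 had the largest difference: it lay at 3.66 and 3.45 against 3.84 in the A673 control, and at 3.16 and 3.37 against 3.46 in the SK-N-MC control (-0.25, SE 0.12, adjusted p = 0.989). In all, 5 of 27 HOX genes kept 1 sign, beside 21.8% of all genes, 10.6% higher and 11.2% lower. The siRNA arrays of a line share 1 control array, so these signs are not independent.

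Within A673, 0 HOX genes and 3.35% of all genes had an unadjusted p under 0.05, and limma called 0 HOX genes and 0% of all genes. Within SK-N-MC limma called 0 HOX genes and 0.00543% of all genes. There HOXD11 lay at 5.09 and 5.19 in the siRNA arrays, against 5.61 in the control (difference -0.47, unadjusted p = 0.0256, adjusted p = 0.925), the single HOX gene with an unadjusted p under 0.05, beside 5.12% of all genes. HOXD9 lay at 4.74 and 4.58 in the same siRNA arrays, against 5.04 in the control (difference -0.38, unadjusted p = 0.0638). In A673 the same genes differed by -0.02 and -0.08. When the SK-N-MC response was subtracted from the A673 response, HOXD11 gave 0.45 and HOXD9 0.30. That test called 0 HOX genes and 0% of all genes, and 0 HOX genes and 3.86% of all genes had an unadjusted p under 0.05. In simulated data, described below, it called 0% of planted 2-fold and 4-fold changes, so its count of 0 cannot show equal responses. Each within-line value rests on 1 control array, and STEAP1 was called in neither line (adjusted p = 1 in A673 and 0.0681 in SK-N-MC).

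**Figure D5:**
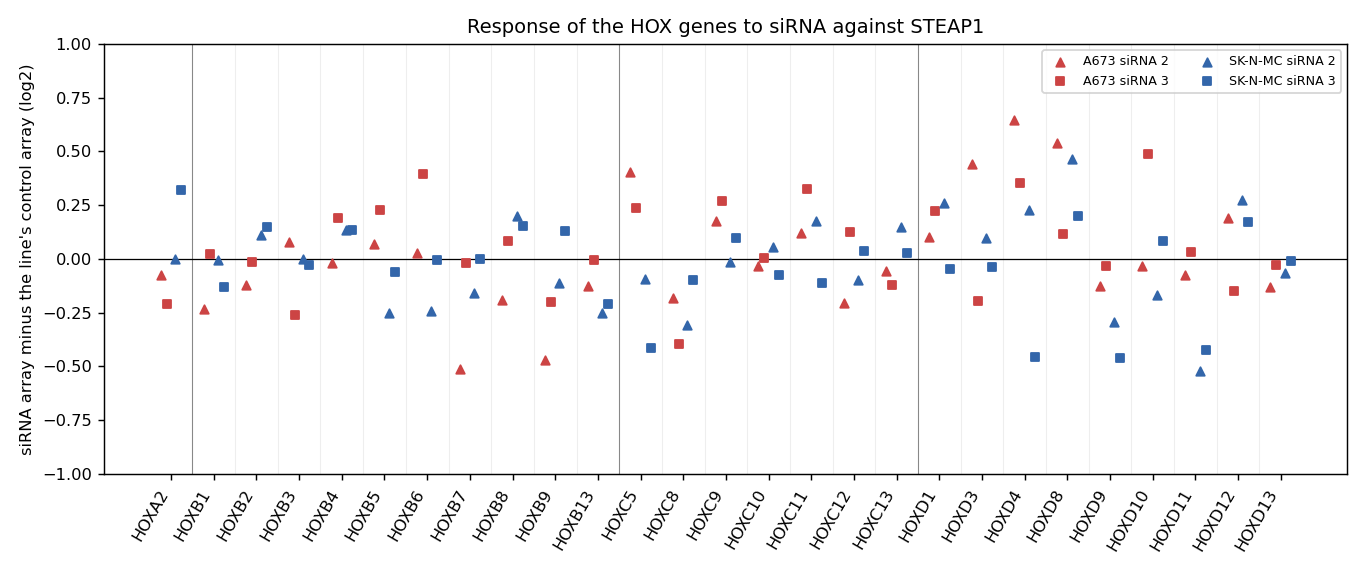
Response of the 27 HOX genes to siRNA against STEAP1, as each siRNA array minus the control array of its line on the log2 scale (vertical axis), by cluster and position (horizontal axis), triangles for siRNA 2 and squares for siRNA 3, A673 in red and SK-N-MC in blue. HOXD8 is the only gene with all 4 points above 0, and no gene was called.

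The last comparison sets siRNA 2 against siRNA 3 in both lines. Its differences use no control value, but the control arrays are in the fit and enter the spread behind its p-values. limma called 0 HOX genes and 0% of all genes (lowest adjusted p of a HOX gene 0.728). An unadjusted p under 0.05 was found for 4 HOX genes, all of the HOXD cluster, and for 6.67% of all genes. HOXD4 was higher with siRNA 2 by 0.49 (unadjusted p = 0.0376, adjusted p = 0.728 in limma). It lay at 5.04 with siRNA 2 against 4.75 with siRNA 3 in A673, and at 4.11 against 3.43 in SK-N-MC. HOXD3 was higher by 0.39 and HOXD8 by 0.34 with siRNA 2, and HOXD10 differed by -0.39, each with the same sign in both lines. For HOXD10 siRNA 2 gave 6.50 against 7.02 with siRNA 3 in A673, and 6.17 against 6.42 in SK-N-MC. These 4 values do not pass after adjustment.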

How the data were processed

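The authors deposited linear intensities. The submitters' processing notes name RMA and the Affymetrix software Expression Console 1.1, and no source used here describes how log values were turned back into linear ones. Of 33297 probe sets, 19460 carried 1 gene symbol in the platform annotation. Symbols were updated by gene identifier through RefSeq (GRCh38.p14), which matched 19429, and 18417 genes remained, each with its probe set of highest mean. No coordinates from RefSeq were assigned to probe sets. No further normalization was applied. Precision is limited by having 6 arrays.

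Log2 values were fitted with limma 3.58.1 in R 4.3.3 (lmFit, eBayes, two-sided), with Benjamini-Hochberg adjustment over 18417 genes and a threshold of 0.05. The line difference and silencing came from a fit with both terms, the within-line responses from 4 group means, and the siRNA difference from a fit with line and siRNA terms. Both siRNAs counted as replicates of silencing. The fits were tested on simulated data, with 100 planted 2-fold and 100 planted 4-fold changes, none of them in genes whose mean log2 is under 4. The line comparison called 74% and 96% of them, silencing across both lines 68% and 93%, and the siRNA comparison 36% and 85%. Within A673 the shares were 1% and 58%, and within SK-N-MC 2% and 60%. The difference of the responses called 0% at both sizes, so its counts of 0 carry no information. All changes of a comparison were planted in the same simulated data, and adjustment is milder when many genes change. The shares therefore need not hold for the deposited data. There STEAP1 differed by -2.18 after silencing across both lines and was not called (adjusted p = 0.293 in limma).

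All HOX genes could be named. Values in every array were given for genes called between the lines and for the largest silencing difference of 1 sign in each direction, and values of other genes were chosen after they were seen. Of the cofactor, regulator and flanking gene lists, the called members with the largest line differences were named. Cell type markers did not follow that rule, and NKX2-2 was named though not called. The members and lists were chosen with earlier results of these data known. Alternatives covered normalization, dim genes, the probe set rule, the variance model, single arrays and the siRNA number as a block.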

Additional observations from a re-analysis of the deposited data

How the results depend on the processing

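The count of 10 HOX genes called between the lines was 10, with the same genes, after a second quantile normalization, median centring, and an intensity trend with robust fitting. Averaging of probe sets and use of every probe set also gave these 10. Each HOX gene has 1 probe set, so those 2 settings left all HOX values unchanged and are no check of them. With the siRNA number as a replicate block (a term for each number in place of the silencing term) it was also 10, and the block changed no call in the silencing comparison. The numbers were taken to name the siRNA. The title of the A673 control also ends in 2, and that of the SK-N-MC control has no number. The labels do not say whether same-numbered arrays were handled together. Deviations of same-numbered arrays correlated at 0.0663 across genes. With 2 siRNA arrays per line the crossed pairs give -0.0663 by construction, so this value cannot decide the question. In the siRNA arrays alone 10 were called, with HOXD11 in place of HOXB13. Leaving out single arrays gave 9 to 10. Without the control array of either line, the line differences and calls were those of the siRNA arrays alone. These settings are therefore 1 check and not separate ones, and the count of 10 there hides the exchange of HOXB13 for HOXD11. With only genes of a mean log2 of at least 4, 7 HOX genes could be tested and 5 were called (HOXD11 was added to HOXD4, HOXD8, HOXD9 and HOXD13). With values under 4 set to 4, 1 HOX gene was called between the lines, 1 within SK-N-MC and 1 for the difference of the responses. The last pair of calls was HOXB13, which then differs from the limit of 4 in 1 array only. The counts for silencing across lines, within A673 and between the siRNAs were 0 under every alternative that could be run, and contrasts that lose their only control array have no value.

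Signs turned only among uncalled genes close to 0. Over single arrays left out, the line difference ran from -0.21 to 0.0076 for HOXA2, -0.18 to 0.0676 for HOXB6, -0.15 to 0.13 for HOXB7, -0.0618 to 0.16 for HOXB9, -0.0459 to 0.13 for HOXD1, -0.0126 to 0.35 for HOXD3 and -0.14 to 0.0563 for HOXD12. In the siRNA arrays alone it was 0.0676 for HOXB6 and -0.0618 for HOXB9. With 1 control array per line and no detection calls, responses of dim HOX genes are the least certain values.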

Other observations

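The joint probe set of HOXC6 and HOXC4, left out of all counts because it carries 2 symbols, lay at 3.70, 3.54 and 3.33 in A673 (siRNA 2, siRNA 3 and control) and at 3.78, 3.86 and 4.27 in SK-N-MC in the same order. Each A673 array was below each SK-N-MC array, and the difference was not tested.

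Both siRNA arrays of A673 moved one way and both of SK-N-MC the other for 6 of 27 HOX genes (HOXA2, HOXB2, HOXB5, HOXB6, HOXC5 and HOXC13), all with a mean log2 under 4, beside 20% of all genes. None of these differences of the responses passed the threshold in limma.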
